A study of Mus musculus with 18 samples.

Results

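Dazl, Ddx4, Sycp1, Sycp3, Mael, Asz1, Tex101, Slc25a31, Hormad1 and Stk31 are germline genes that are normally silenced by DNA methylation in somatic cells, and they were followed here in B lineage cells that lacked both methyltransferases for new DNA methylation, Dnmt3a and Dnmt3b. Members were chosen by symbol, and all 10 of 10 were found among the 21761 genes of the deposited expression table. RNA-seq had been carried out on 18 samples of 5000 sorted cells each, in 6 groups of 3. The cells were naive B cells (nB, B220+ Fas- GL7-) from lymph nodes of unimmunized mice, and phycoerythrin-specific germinal center B cells (GCB, B220+ Fas+ GL7+ PE+) from lymph nodes and bone marrow plasma cells (BMPC, CD138+) from mice immunized 30 days earlier with phycoerythrin in complete Freund's adjuvant. Dnmt3-deficient mice were Dnmt3afl/flDnmt3bfl/fl with 1 allele of a B-cell-specific Cre recombinase and Dnmt3-sufficient littermates were Dnmt3afl/flDnmt3bfl/fl without Cre, so all groups carried the floxed alleles (on a B6;129S4 background). The Dnmt3b allele was Dnmt3btm5.1Enl, and the Dnmt3a allele is Dnmt3atm3.1Enl in the labels and Dnmt3atm3.2Enl in the study's methods. All were young adult mice of both sexes. Cre was expressed from the pro-B cell stage on, the floxed parts encode the catalytic domains, and each GCB sample was a pool of 2 mice.

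Genes of this kind are used in germ cells, where they run meiosis, protect the genome from transposons and control the translation of germ cell messenger RNAs. Many have CpG-rich promoters that are methylated by Dnmt3a and Dnmt3b as the embryo leaves the pluripotent state. Afterwards the methylation is copied at each cell division by the maintenance methyltransferase Dnmt1 with its partner Uhrf1, and Polycomb-related complexes that contain E2F6, MGA and MAX add a further layer of repression. The comparison of the genotypes asked whether any of the genes was expressed in Dnmt3-deficient cells. DNA methylation of these promoters was not analysed here.

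The promoters show what the genes share in sequence. The genes were chosen as ones silenced by DNA methylation, so the choice is not independent of CpG number. RefSeq (GRCm38.p6) gave 300 bases for each of the 10 genes, from 250 bases before the start site to 50 after it, with the first start site listed where there were 2 (Hormad1 and Stk31), and each of the 10 matched the mm9 genome (NCBIM37) exactly once. These are the promoters of Dazl and Mael, which had no reads anywhere, and of Ddx4 and Sycp3, which held most of the reads found. They read 5′ to 3′ along the gene, with CpG sites in capitals.
Dazl, chr17:50293571-50293870, minus strand: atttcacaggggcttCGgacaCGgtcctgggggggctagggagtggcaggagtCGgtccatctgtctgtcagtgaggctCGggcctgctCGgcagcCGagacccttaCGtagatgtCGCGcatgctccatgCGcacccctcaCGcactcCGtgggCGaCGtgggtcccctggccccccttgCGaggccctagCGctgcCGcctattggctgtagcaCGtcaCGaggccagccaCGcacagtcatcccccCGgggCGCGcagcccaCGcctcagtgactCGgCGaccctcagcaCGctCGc
Ddx4, chr13:112652261-112652560, minus strand: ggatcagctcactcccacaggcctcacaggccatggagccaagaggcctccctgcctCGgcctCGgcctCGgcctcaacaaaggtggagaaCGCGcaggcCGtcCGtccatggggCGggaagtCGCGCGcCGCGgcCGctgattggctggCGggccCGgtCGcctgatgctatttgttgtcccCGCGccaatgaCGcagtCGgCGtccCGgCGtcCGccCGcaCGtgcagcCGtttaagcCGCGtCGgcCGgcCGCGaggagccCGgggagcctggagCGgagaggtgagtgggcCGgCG
Mael, chr1:166238695-166238994, minus strand: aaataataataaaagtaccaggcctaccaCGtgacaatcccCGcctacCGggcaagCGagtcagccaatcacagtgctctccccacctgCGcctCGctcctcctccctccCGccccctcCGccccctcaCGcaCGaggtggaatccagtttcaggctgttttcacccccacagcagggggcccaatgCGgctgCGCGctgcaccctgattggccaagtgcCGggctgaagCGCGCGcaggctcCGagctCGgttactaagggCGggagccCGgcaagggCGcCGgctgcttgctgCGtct
Sycp3, chr10:88459337-88459636, plus strand: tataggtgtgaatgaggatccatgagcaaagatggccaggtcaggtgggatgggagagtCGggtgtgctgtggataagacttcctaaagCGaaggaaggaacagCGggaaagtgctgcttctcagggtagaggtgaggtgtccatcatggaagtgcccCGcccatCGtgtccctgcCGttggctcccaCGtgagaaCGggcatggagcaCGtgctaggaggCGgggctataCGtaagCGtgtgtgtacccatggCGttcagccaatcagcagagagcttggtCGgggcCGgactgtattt

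CpG sites numbered 28 in the Dazl, 38 in the Ddx4, 24 in the Mael and 15 in the Sycp3 promoter. Among the 10 genes the number ran from 15 in Sycp3 to 38 in Ddx4 with a median of 23, against a median of 15 (quartiles 4 and 25) over the 16524 genes of the table with such a promoter. The ratio of CpG sites observed to those the base composition would give had a median of 0.789 in the 10 promoters and 0.612 in all. Hence 9 of the 10 lay above the median of all genes in CpG number, and Sycp3 lay on it. The letters CACGTG, an E box of the kind that MGA and MAX bind, were searched for on both strands (the motif is its own reverse complement) and stood in 7 of the 10 promoters, all but those of Dazl, Asz1 and Tex101. All promoters held it in 8.28% of cases, and those with at least 15 CpG sites in 11.6%. The letters TCCCGC, or GCGGGA on the other strand, an E2F core, stood in 6 of the 10, the same promoters as the E box apart from that of Stk31, against 27.1% of all promoters and 45.3% of those with at least 15 CpG sites. Both motifs together stood in 6 of the 10 and in 5.27% of promoters with at least 15 CpG sites. The 58 other germline genes of the lists described further on that had a promoter stood at a median of 15 CpG sites, with the E box in 20.7% and the E2F core in 34.5%. Overlaps between matches were not removed, and a match is a description of the sequence only.

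**Figure D1:**
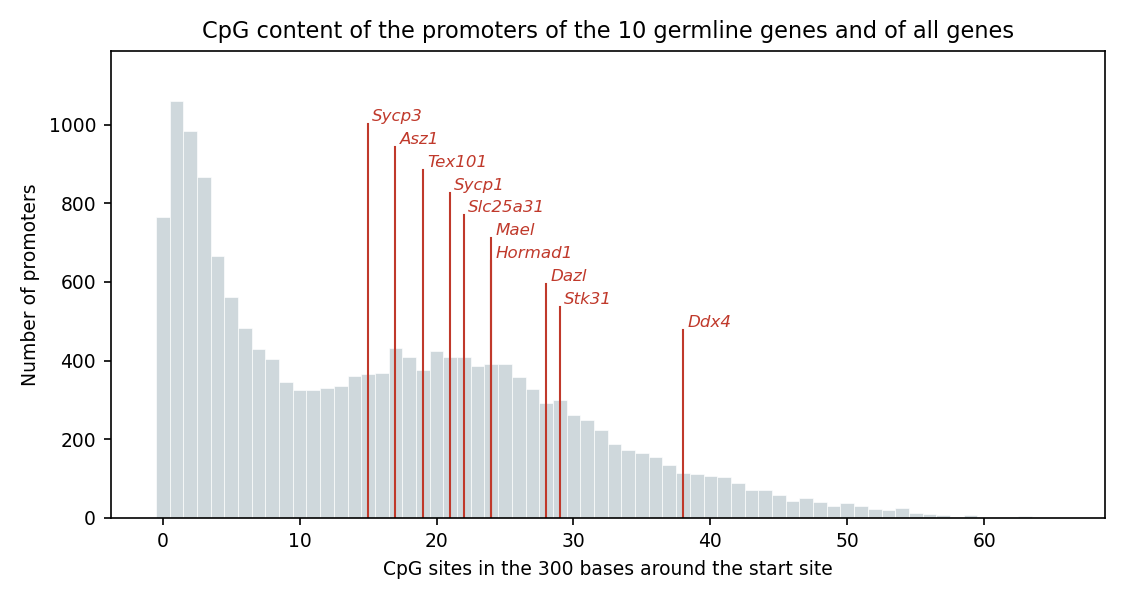
Number of promoters (vertical axis) by their CpG sites in 300 bases (horizontal axis), over 16524 genes (grey bars), with the 10 germline genes as labelled red lines whose height carries no value. The 10 genes run from 15 CpG sites (Sycp3) to 38 (Ddx4), and 9 of them lie above the median of all genes, 15.

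Few genes with promoters this rich in CpG sites were without reads. Of the 8275 genes with at least 15 CpG sites, 903 (10.9%) had 0 reads in all 18 libraries, against 48.7% of genes with fewer. Of the 10 germline genes, 6 had 0 reads in all 18 libraries. Across the whole table that was true of 6837 of 21761 genes (31.4%).

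Reads on genes numbered 6692516 to 8987922 in the 6 nB libraries and 7644544 to 8903872 in the 6 GCB libraries. They were fewer in BMPC, at 2196198 to 3803197 in the Dnmt3-sufficient and 1355231 to 2265945 in the Dnmt3-deficient libraries. Mki67, a marker of dividing cells, had at least 4527 reads in every GCB library, at most 60 in nB and at most 723 in BMPC, and Jchain, the joining chain of secreted antibody, had at least 118233 reads in every BMPC library. One library stood apart, since Dnmt3-deficient nB replicate 2 held 1669 Jchain reads where the other nB libraries held 0 to 2. Whole-gene values of Dnmt3a and Dnmt3b overlapped between the genotypes in nB and BMPC. In GCB those of Dnmt3b did not overlap and were the higher in libraries labelled Dnmt3-deficient, at 0.744 to 1.10 FPKM against 0 to 0.676 FPKM. Such values do not check the deletion, because exons outside the floxed parts are also counted.

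All 10 germline genes had 0 reads in all 3 Dnmt3-deficient GCB libraries and in all 3 Dnmt3-deficient BMPC libraries. In Dnmt3-deficient nB, 8 of the 10 had 0 reads, and the exceptions were Sycp3 and Hormad1. Of all genes, 41.7% had 0 reads in the 3 Dnmt3-deficient nB libraries, 41.0% in the GCB and 51.9% in the BMPC libraries. Over all 18 libraries the 10 genes received 111 of 111122943 reads, with 22 of them in the 9 Dnmt3-deficient and 89 in the 9 Dnmt3-sufficient libraries. Of the 180 values, 1 per gene and library, 9 were above 0 and 6 exceeded 3 reads, the number that a count of 0 allows. The 6 were 4 values in Dnmt3-sufficient and 2 in Dnmt3-deficient libraries. In bulk samples such as these, fewer cells that express a gene and less RNA per cell cannot be told apart.

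**Figure D2:**
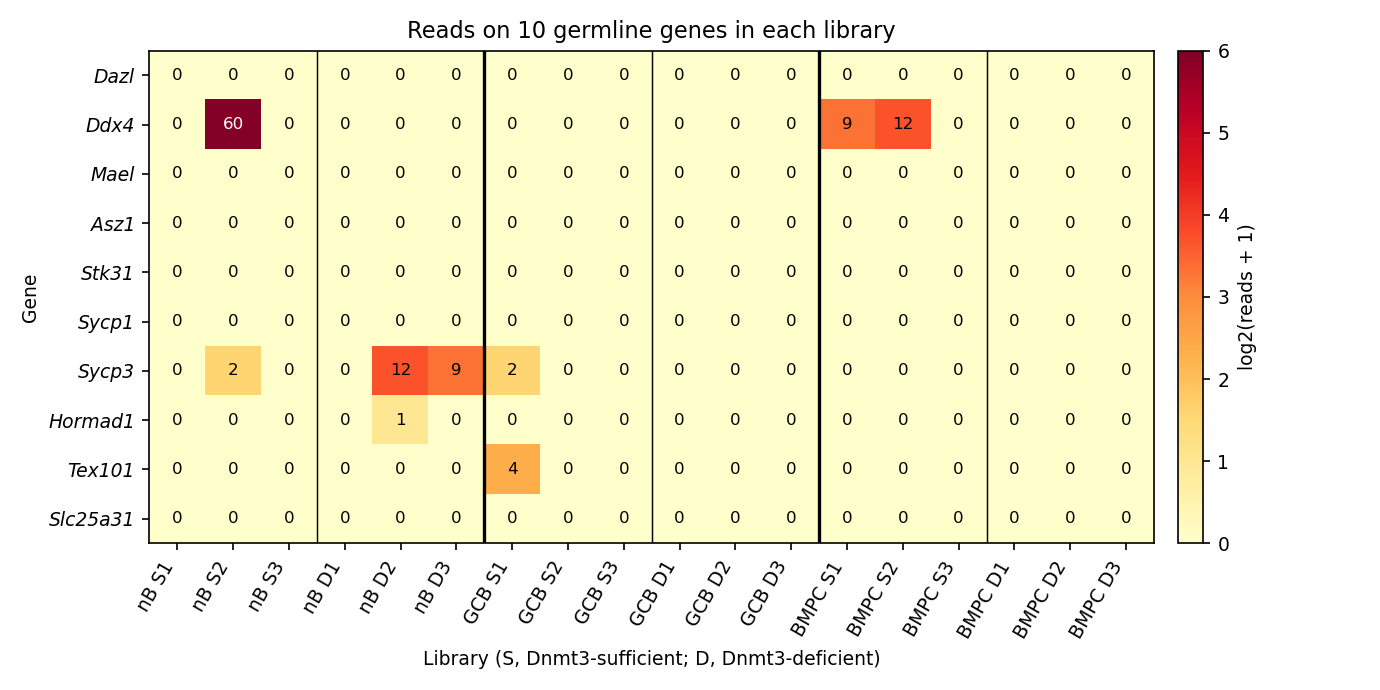
Reads on each germline gene (rows) in each of the 18 libraries (columns), with the count printed and its log2(reads + 1) as colour. Rows are ordered by role, and 9 of 180 cells are above 0, none of them in a Dnmt3-deficient GCB or BMPC library.

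The limits behind these zeros differed by cell type. For a gene with 0 reads over the 3 libraries of a group, 3 reads would have been a level of 0.0331 to 0.0954 FPKM in Dnmt3-deficient GCB, from the longest gene, Dazl, to the shortest, Sycp3, where FPKM are reads per kilobase of exon and per 1000000 reads on genes. The same limit was 0.0368 to 0.106 FPKM in Dnmt3-deficient nB and 0.159 to 0.458 FPKM in Dnmt3-deficient BMPC. A gene at 1 FPKM would have given 31.5 to 90.8 reads over the 3 Dnmt3-deficient GCB libraries and 6.55 to 18.9 reads over the 3 Dnmt3-deficient BMPC libraries. Expression below the limits of 3 reads could still have given 0 reads. The limits cover counting error alone, because amplified reads from 5000 cells, without molecular identifiers, are not independent molecules. Zeros also occurred for genes that all 3 cell types used. Of 15 regulators described further on, every one had reads in all 12 nB and GCB libraries, but 5 had 0 reads in Dnmt3-deficient BMPC replicate 2 and 1 or 2 in each of the other BMPC libraries.

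The genes that act on germ cell RNA and transposons gave reads at 1 gene of 5. Dazl (chr17:50418719-50432924 on mm9, minus strand), an RNA-binding protein that drives translation in germ cells, had 0 reads in each of the 18 libraries. Mael (chr1:168131516-168168875, minus strand) and Asz1 (chr6:18000964-18059061, minus strand), both required for transposon silencing by piRNAs, also had 0 reads in each of the 18. Stk31 (chr6:49345603-49419500, plus strand), a Tudor-domain protein of germ cells, was likewise at 0 throughout. The limit from 0 reads over the 3 Dnmt3-deficient GCB libraries was 0.0331 FPKM for Dazl, with 3596 bases of exon, and 0.0769 FPKM for Mael, with 1546 bases.

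Ddx4 (Entrez 13206, chr13:113388541-113442518, minus strand), the germ cell RNA helicase also known as Vasa, was the exception, and its reads all came from Dnmt3-sufficient libraries. In Dnmt3-sufficient nB it had 0, 60 and 0 reads in replicates 1 to 3, and in Dnmt3-sufficient BMPC 9, 12 and 0 reads. It had 0 reads in all 9 Dnmt3-deficient libraries and in the 3 Dnmt3-sufficient GCB libraries. As levels, the 3 libraries with reads stood at 2.75, 1.44 and 1.11 FPKM. The groups overlapped in every cell type, since a Dnmt3-sufficient library at 0 was present each time.

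The mean of Ddx4 was 0.918 FPKM ± 1.59 (SD, n = 3) in Dnmt3-sufficient nB and 0.849 FPKM ± 0.753 (SD, n = 3) in Dnmt3-sufficient BMPC. At the latter mean, the 3 Dnmt3-deficient BMPC libraries would have held 3.95, 3.28 and 5.48 reads, or 12.7 together, and they held 0. With 3 reads over the Dnmt3-deficient group as the floor, the pooled Dnmt3-sufficient level was 3.82 times that floor in BMPC and 19.4 times in nB. The nB value rests on replicate 2 alone and the BMPC value on replicates 1 and 2. These ratios take the Dnmt3-sufficient reads as exact. They cover counting error only for the zeros, and not the spread between mice. By limma on log2(FPKM + 1), the difference of Dnmt3-deficient from Dnmt3-sufficient was -0.64 ± 0.43 (SE) in nB with an adjusted p of 1, and -0.79 ± 0.43 (SE) in BMPC with an adjusted p of 0.324. An exact two-sided permutation test of 3 against 3 libraries, whose smallest p is 0.1, gave p = 1 in nB and p = 0.4 in BMPC. Neither difference passed by limma, and the permutation test could not have given a p under 0.05. Ddx4 entered the limma fit through Dnmt3-sufficient libraries alone, so that test of a loss is not independent of the filter. The difference of the means was smaller than the SD of the Dnmt3-sufficient libraries in nB and slightly larger than it in BMPC.

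Other values differed between the genotypes in BMPC. The 2 libraries with Ddx4 reads were deeper than, or similar to, the Dnmt3-deficient ones (2196198 and 3803197 reads against 1355231 to 2265945), and the third Dnmt3-sufficient library, without Ddx4 reads, had 3629318. Of the erythroid genes, Hba-a2 (alpha globin) ran from 423.6 to 1047 FPKM in Dnmt3-sufficient and from 44.4 to 413 FPKM in Dnmt3-deficient BMPC, and Hbb-bs (beta globin) from 578 to 957 FPKM and from 47.6 to 342 FPKM. The 6 plasma cell markers summed to 17010 to 26870 FPKM in Dnmt3-sufficient and 31160 to 48110 FPKM in Dnmt3-deficient BMPC. Markers of other cells were also found in BMPC, and their sums overlapped between the genotypes. In the same order, neutrophil markers summed to 34.2 to 452 FPKM and 9.37 to 569 FPKM. T cell markers summed to 25.1 to 126 FPKM and 70.9 to 134 FPKM, and macrophage markers to 0.0477 to 23.0 FPKM and 0 to 69.3 FPKM. Dnmt3-sufficient replicate 3, with 0 Ddx4 reads, had the highest Hba-a2 (1047 FPKM) and Hbb-bs (957 FPKM) and the lowest plasma cell sum (17010 FPKM). The part of all these values in the Ddx4 difference was not tested.

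Ddx4 was also the only member that could enter the fit over all genes, which kept 11522 genes above 1 FPKM in at least 2 libraries. In that fit, 0 of the 10 germline genes passed (a difference of 1 or more in log2 in either direction, with an adjusted p up to 0.05) between the genotypes in nB, GCB or BMPC, and Ddx4 was not under an unadjusted p of 0.05 in any of the 3. Of all genes tested, 0.0521% passed in nB, 0.0% in GCB and 3.98% in BMPC. The share in BMPC was not stable, since the 459 genes behind it became 18 with a quality weight per library, 0 with the BMPC libraries fitted alone and 922 without Dnmt3-deficient replicate 1. In nB the 6 genes became 0 with the nB libraries fitted alone and 20 without the filter. In GCB, where 0 of 11522 genes passed, 124 had an unadjusted limma p under 0.05, and limma-voom on the recovered reads called 2. No genotype effect on Ddx4 differed between cell types by the interaction contrasts either, with a lowest adjusted p of 0.738 (BMPC against GCB). These counts rest on Ddx4 alone. It entered the fit only through Dnmt3-sufficient libraries, so a gain in Dnmt3-deficient cells could not have been called there for any of the 10.

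Between cell types, averaged over the genotypes, Ddx4 gave 0.39 ± 0.30 (SE, log2) for BMPC minus GCB (adjusted p = 0.295), 0.08 ± 0.30 for BMPC minus nB (adjusted p = 0.854) and -0.32 ± 0.30 for GCB minus nB (adjusted p = 0.489). It passed in 0 of these 3 limma comparisons. Over all genes, 41.4%, 48.7% and 21.5% passed, in the same order. Limma-voom, which works on the reads and weights them by precision, called Ddx4 higher in BMPC than in GCB (3.34 on the log2 scale, adjusted p = 0.0171). Its only reads in these cell types were the 9 and 12 in 2 of 6 BMPC libraries. Voom also gives a count of 0 a higher value in a library with fewer reads, and the BMPC libraries were the shallowest. The 3.34 therefore includes a part from zeros at unequal depth, whose size was not tested.

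The genes of the meiotic chromosome gave few reads, and those of Sycp3 came mainly from Dnmt3-deficient cells. Sycp1 (chr3:102622422-102740023, minus strand), which forms the transverse filaments of the synaptonemal complex, had 0 reads in each of the 18 libraries. Sycp3 (Entrez 20962, chr10:87922314-87935981, plus strand), a component of the axial elements of that complex, had 0, 2 and 0 reads in Dnmt3-sufficient nB and 0, 12 and 9 reads in Dnmt3-deficient nB. It had 2 reads in Dnmt3-sufficient GCB replicate 1 and 0 in the other 11 GCB and BMPC libraries. Hormad1 (Entrez 67981, chr3:95363599-95391593, plus strand), a HORMA-domain protein of unsynapsed meiotic chromosomes, had 1 read, in Dnmt3-deficient nB replicate 2.

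Sycp3 was thus the only one of the 10 above 3 reads in any Dnmt3-deficient library. Its level in Dnmt3-deficient nB was 0, 1.37 and 0.945 FPKM, a mean of 0.773 FPKM ± 0.702 (SD, n = 3), against 0.0699 FPKM ± 0.121 (SD, n = 3) in Dnmt3-sufficient nB. Replicate 1 of the Dnmt3-deficient group was at 0, where 3 reads would have been 0.301 FPKM, and so the groups overlapped. The exact two-sided permutation test gave p = 0.4, with 0.1 as the smallest p. Sycp3 did not reach 1 FPKM in 2 libraries and was not tested in the main fit. Without that filter, limma gave a difference of 0.64 ± 0.22 (SE, log2) with an unadjusted p of 0.0101 and an adjusted p of 0.826 over 14924 genes.

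The 2 libraries with over 3 Sycp3 reads also differed from the Dnmt3-sufficient nB libraries in other ways. Hba-a2 had 106, 473 and 1015 reads in Dnmt3-deficient nB replicates 1 to 3, and 0 to 7 reads in the Dnmt3-sufficient nB libraries. Hbb-bs had 55, 224 and 423 reads against 2 to 3. Globin reads were thus also raised in Dnmt3-deficient replicate 1, which had 0 Sycp3 reads. Replicate 2 was the library with 1669 Jchain reads, and its 6 plasma cell markers summed to 173 FPKM against 38.4 to 73.2 FPKM in the other nB libraries. Neutrophil markers were at 0 in all 12 nB and GCB libraries, but other marker sets were not at 0 in nB. T cell markers summed to 13.1 to 47.5 FPKM in Dnmt3-deficient and 13.9 to 46.5 FPKM in Dnmt3-sufficient nB. Macrophage markers summed to 1.93 to 5.02 FPKM and 0 to 7.70 FPKM in the same order. On the mm9 annotation (GENCODE M1), exons of Sycp3 overlap exons of Chpt1, a choline phosphotransferase gene on the opposite strand, and use of strand in the counting is not given in the sources used here. Chpt1 had 0, 1 and 1 reads in Dnmt3-deficient nB and 10, 54 and 0 reads in Dnmt3-sufficient nB. The part of these values in the Sycp3 difference was not tested.

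**Figure D3:**
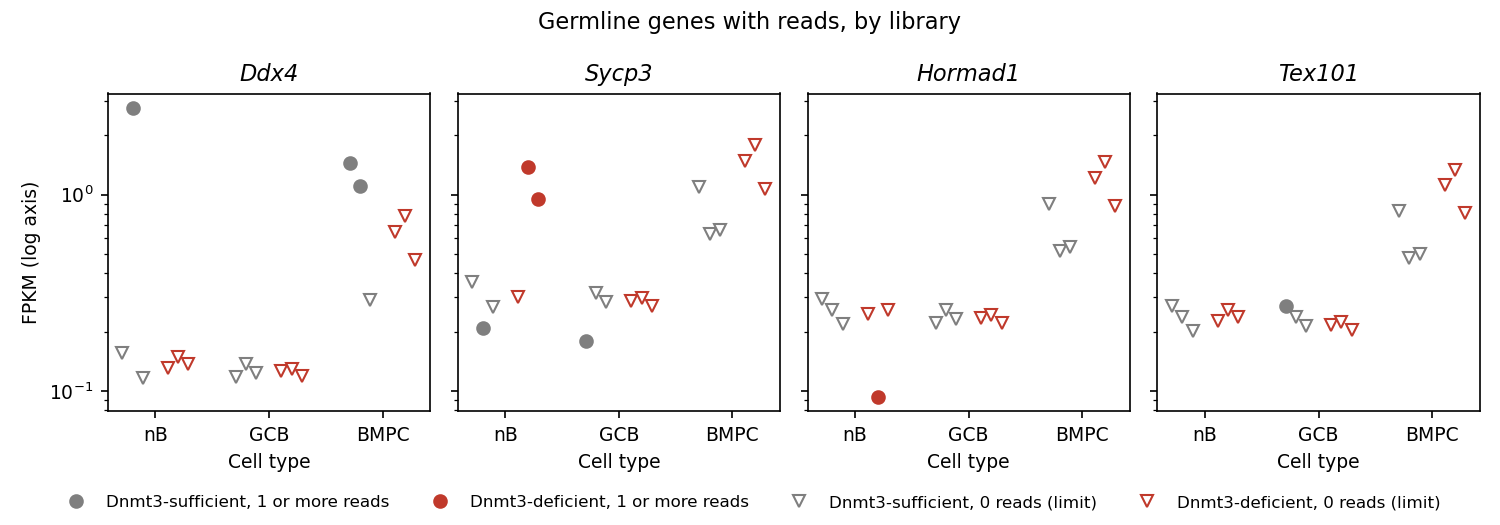
Level (FPKM, log axis) of the 4 germline genes with reads, by cell type and library. Filled circles are libraries with 1 or more reads, and open triangles stand at the level that 3 reads would have given in libraries with 0. Sycp3 reached 1.37 and 0.945 FPKM in 2 Dnmt3-deficient nB libraries, while the 3 Ddx4 circles are all Dnmt3-sufficient.

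The genes of sperm surface and metabolism had 0 reads in every Dnmt3-deficient library. Tex101 (Entrez 56746, chr7:25453031-25457069, minus strand), a GPI-anchored glycoprotein of germ cells, had 4 reads in Dnmt3-sufficient GCB replicate 1 (0.272 FPKM) and 0 in the other 17 libraries. Slc25a31 (chr3:40512777-40529515, plus strand), the ADP/ATP carrier of testis mitochondria, had 0 reads in each of the 18. Over the 3 Dnmt3-deficient BMPC libraries, 3 reads would have been 0.346 FPKM for Tex101 and 0.271 FPKM for Slc25a31. The 4 reads of Tex101 gave an exact permutation p of 1 between the genotypes in GCB. No member exceeded 3 reads in as many as 9 libraries, the minimum set for naming the genes with the most similar pattern, and none were therefore named.

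Summed over the 10 genes, Dnmt3-deficient nB held 0, 1.85 and 1.18 reads per 1000000 reads on genes, and Dnmt3-sufficient nB 0, 8.11 and 0. The sum was 0 in the 6 Dnmt3-deficient GCB and BMPC libraries. It was 0.674, 0 and 0 in Dnmt3-sufficient GCB and 4.10, 3.16 and 0 in Dnmt3-sufficient BMPC. In each cell type the highest library was Dnmt3-sufficient, and in each at least 1 library of either genotype was at 0.

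A rule for gain that needs no fold was added after the values were seen. It asks for over 3 reads in at least 2 of the 3 Dnmt3-deficient libraries and in 0 of the 3 Dnmt3-sufficient ones. In nB, 1 of the 10 genes, Sycp3, met it, as did 204 of all 21761 genes (0.937%). In GCB 0 of the 10 met it (0.836% of all genes), and in BMPC 0 of the 10 (1.09%). The reverse rule, for loss, was met by 0 of the 10 in nB (0.492% of all genes), by 0 in GCB (0.455%) and by 1 in BMPC, Ddx4 (2.29%). These counts of members stand beside the shares as a description and were not tested. The rules use reads without adjustment for depth. In BMPC the Dnmt3-deficient libraries held 5254101 reads together and the Dnmt3-sufficient ones 9628713, which makes the rule for loss the easier one to meet there.

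Other germline genes of the same processes were read in 3 lists, of which 70 genes were in the table (Rhox5 was not among them). No gene of these lists passed between the genotypes in any cell type, by limma or by limma-voom, and at an unadjusted limma p under 0.05 stood 2 genes of the piRNA list in BMPC and 1 and 2 of the meiosis list in nB and BMPC. Of all genes tested, 2.71% were under that p in nB, 1.08% in GCB and 20.3% in BMPC. In the piRNA and germ cell RNA list, 7 of 23 genes had 0 reads in all 18 libraries, in the meiosis list 6 of 27 and in the testis list 14 of 20, against 6 of the 10 members. Over 3 reads in at least 1 Dnmt3-deficient library were found for 20 of the 70 in nB, 24 in GCB and 10 in BMPC, where the shares of all genes were 53.9%, 53.9% and 43.4%. Of the 10 members, the counts were 1, 0 and 0. Over 3 reads were found for 11 to 14 of the 70 in Dnmt3-sufficient and 13 to 14 in Dnmt3-deficient nB libraries. The ranges were 14 to 19 and 15 to 21 in GCB, and 5 to 7 and 2 to 7 in BMPC, so the genotypes overlapped in each cell type.

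**Figure D4:**
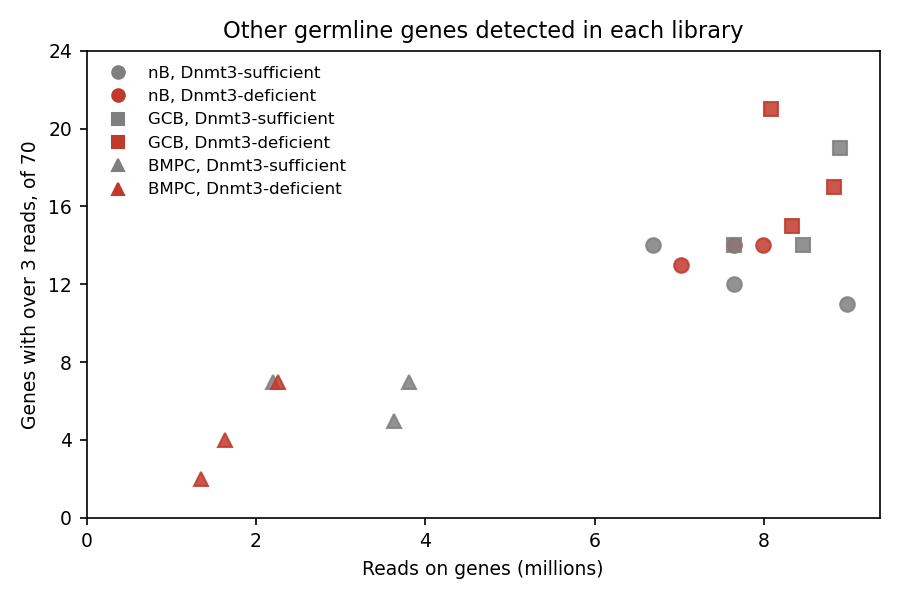
Number of the 70 other germline genes with over 3 reads (vertical axis) against reads on genes in units of 1000000 (horizontal axis), 1 point per library, with shape for cell type and colour for genotype. The 6 BMPC libraries lie lowest in both, with 2 to 7 genes, and Dnmt3-deficient and Dnmt3-sufficient libraries overlap within each cell type.

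In the piRNA list, 6 of 23 genes were tested, 0 passed between the genotypes, and their median differences (log2) were -0.10 in nB, 0.34 in GCB and -0.11 in BMPC, where the medians of all genes tested were 0.00, 0 and -0.05. Tdrd7, a Tudor-domain protein of germ granules, stood at 7.87 FPKM ± 2.99 in Dnmt3-deficient and 9.54 FPKM ± 2.28 in Dnmt3-sufficient nB (SD, n = 3). It fell by 2.63 on the log2 scale from nB to GCB (limma adjusted p = 3.57e-06). Ddx25, a testicular RNA helicase, was at 7.73 FPKM ± 1.41 and 11.7 FPKM ± 8.60 in the same nB groups and had 0 reads in all 6 BMPC libraries. Tdrkh, a Tudor protein that binds piRNA pathway proteins, reached 341 reads in Dnmt3-sufficient BMPC replicate 3 and had reads in 7 of 18 libraries. Dnd1, a germ cell RNA-binding protein, was at 2.01 FPKM ± 1.27 in Dnmt3-deficient and 0.845 FPKM ± 0.801 in Dnmt3-sufficient nB. In BMPC Dnd1 had 0 reads in the Dnmt3-deficient libraries and 3.78 FPKM ± 4.39 in the Dnmt3-sufficient ones, a difference of -1.80 ± 0.59 (SE, log2) with an unadjusted limma p of 0.00763 and an adjusted p of 0.0891. Tdrd7, Ddx25, Tdrkh and Dnd1, unlike Dazl, Mael or Asz1, had reads in B cells of either genotype. By the rules for gain and loss above, 1 of all 70 genes, Mei4, met that for gain in nB (1.43%, against 0.937% of all genes). The rule for loss was met in nB by 1, Stag3 (1.43%, against 0.492%). In BMPC it was met by 3, Dnd1, Tdrkh and Ythdc2 (4.29%, against 2.29%). The rule for gain was met by 0 of the 70 in BMPC, and in GCB 0 met either rule.

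In the meiosis list, 14 of 27 genes were tested, and 0 passed between the genotypes, with medians of 0.12, -0.02 and -0.02 in nB, GCB and BMPC. By limma-voom the BMPC median was 0.69 for the piRNA and 0.54 for the meiosis list, the opposite sign, beside 0.06 over all genes tested. Voom gives a count of 0 a higher value at lower depth. The Dnmt3-deficient BMPC libraries held 5254101 reads together and the Dnmt3-sufficient ones 9628713. The 1 tested gene of the testis list had a BMPC difference of 0 by limma and 0.87 by limma-voom. These voom medians are thus no measure of a gain. Psmc3ip, a partner of meiotic recombinases, was at 61.2 FPKM ± 19.97 in Dnmt3-deficient and 64.5 FPKM ± 8.12 in Dnmt3-sufficient GCB. It rose by 2.42 on the log2 scale from nB to GCB (limma adjusted p = 0.0195). In BMPC it was at 27.9 FPKM ± 45.8 in Dnmt3-deficient and 84.1 FPKM ± 45.7 in Dnmt3-sufficient libraries, a difference of -3.42 ± 1.03 (SE, log2) with an unadjusted limma p of 0.00414 and an adjusted p of 0.0665. Syce2, a central element protein of the synaptonemal complex that Sycp1 and Sycp3 also build, rose by 2.15 from nB to GCB (limma adjusted p = 0.00158). Trip13, an ATPase that remodels HORMA-domain proteins, rose by 3.06 from nB to GCB (limma adjusted p = 4.92e-05). Between the genotypes in nB, Trip13 was lower in Dnmt3-deficient libraries, with a difference of -2.03 ± 0.62 (SE, log2). That difference had an unadjusted limma p of 0.00454 and an adjusted p of 0.729. Prdm9, the histone methyltransferase that places meiotic recombination sites, fell by 2.02 from nB to GCB (limma adjusted p = 0.00227). Syce2 was therefore present in both genotypes of every cell type, with reads in 18 of 18 libraries, while Sycp1 was at 0 in all of them.

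Of the testis list, only Tex14 was tested, a protein of the bridges between germ cells, and it did not pass between the genotypes. It stood at 0.570 FPKM ± 0.610 in Dnmt3-deficient and 1.02 FPKM ± 0.301 in Dnmt3-sufficient GCB. Tuba3b, a testis alpha-tubulin, had 110 reads in Dnmt3-deficient BMPC replicate 3 and 0 in the other 17 libraries. Tuba3a had 5 reads in the same library alone, and the genes are near-identical copies between which reads can be divided wrongly. Pgk2, the phosphoglycerate kinase of sperm, had 11 reads in Dnmt3-deficient GCB replicate 2 and 0 elsewhere. Each of these 3 was found in 1 library of 3, with the others of its group at 0.

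The repressors and cofactors known to act on germline genes were expressed in both genotypes. All 15 of 15 had over 3 reads in at least 1 Dnmt3-deficient library of each cell type, and 0 of 15 passed between the genotypes by limma or limma-voom (4 in BMPC, where 20.3% of all genes did, and 0 in nB and GCB had an unadjusted limma p under 0.05), with medians (log2) of 0.13 in nB, 0.01 in GCB and -0.10 in BMPC. The 4 in BMPC were all lower in Dnmt3-deficient libraries. They were Tfdp1 (-2.17 ± 0.62 (SE, log2), limma adjusted p = 0.0549), Rnf2 (-2.01, adjusted p = 0.208), Trim28 (-1.61, adjusted p = 0.175) and Setdb1 (-1.47, adjusted p = 0.166). Uhrf1, which brings Dnmt1 to newly copied DNA, was at 163 FPKM ± 9.54 in Dnmt3-deficient and 175 FPKM ± 7.45 in Dnmt3-sufficient GCB (SD, n = 3). In nB it was at 4.89 FPKM ± 2.63 and 6.51 FPKM ± 8.48 in the same order. Dnmt1, named here after its values were seen, had 56.5 to 85.4 FPKM in Dnmt3-deficient and 52.2 to 63.6 FPKM in Dnmt3-sufficient GCB. In BMPC its values were 1.49 to 6.17 and 5.71 to 18.5 FPKM, which overlapped. Cbx3, a heterochromatin protein, was at 399 FPKM ± 37.8 and 405 FPKM ± 36.8 in Dnmt3-deficient and Dnmt3-sufficient nB. Max, the partner of MGA, was at 48.7 FPKM ± 26.1 and 33.4 FPKM ± 12.4 in these groups, with reads in 18 of 18 libraries.

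Between cell types the same 15 genes moved more. From nB to GCB, 3 rose and 1 fell (9.47% and 12.0% of all genes tested), with a median difference of 0.17 beside -0.13 over all genes tested, and Uhrf1 rose by 5.08 on the log2 scale (limma adjusted p = 8.47e-07). Tfdp1, the dimer partner of E2F factors, rose by 4.35 (adjusted p = 1.1e-06). From GCB to BMPC, 0 rose and 9 fell (7.72% and 33.7% of all genes), with a median of -1.88 beside -0.66 over all genes. With median of ratios scaling the count was 1 higher and 8 lower. From nB to BMPC, 3 rose and 8 fell (9.43% and 39.3% of all genes), with a median of -1.19 beside -0.79. Through these changes Dazl, Sycp1, Mael, Asz1, Stk31 and Slc25a31 had 0 reads in all 3 cell types of both genotypes.

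**Figure D5:**
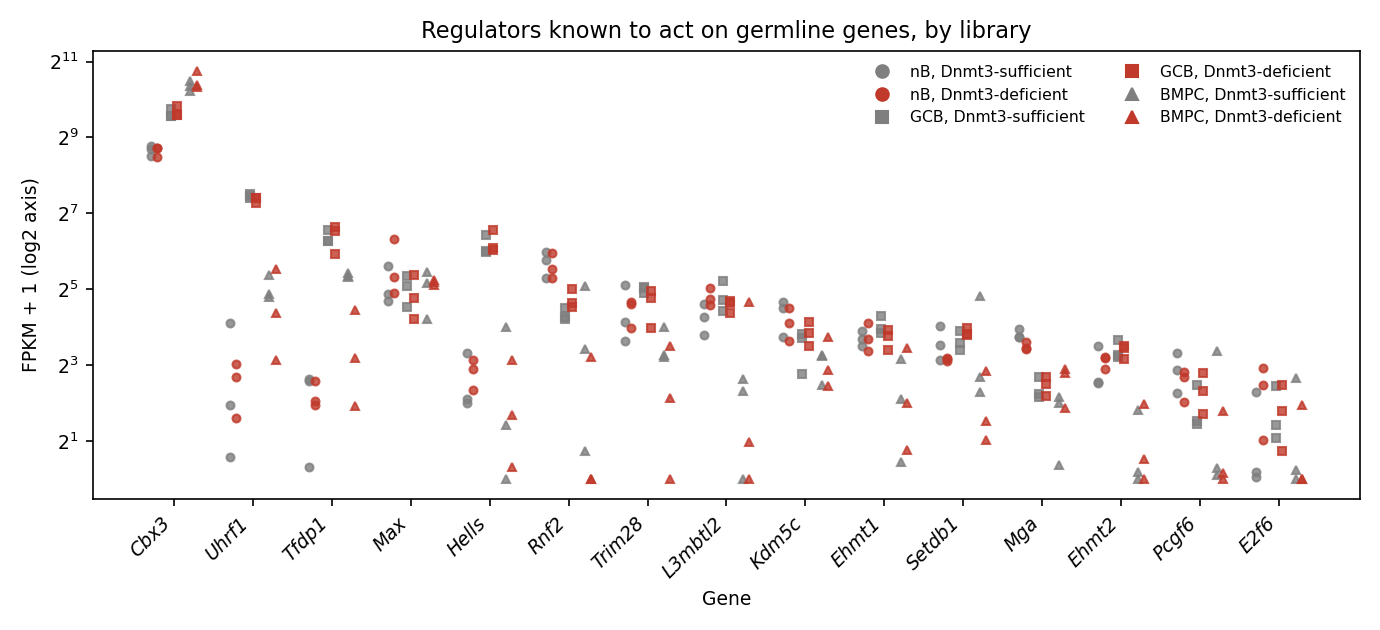
Level (FPKM + 1, log2 axis) of the 15 repressors and cofactors in each library, with shape for cell type and colour for genotype. Dnmt3-deficient and Dnmt3-sufficient points overlap in most columns, and Uhrf1 and Tfdp1 are higher in GCB than in nB.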

How the data were processed

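mRNA from 5000 sorted cells per sample was amplified with a SMART-type kit, tagmented with Nextera and sequenced as 50 bp paired-end reads. Per the study's methods, reads were mapped to mm9 with Tophat at a single hit, and reads that overlapped exons of UCSC KnownGenes uniquely were counted with summarizeOverlaps. The authors deposited FPKM, from which reads were recovered as FPKM times exon length, since all values were whole multiples of 1 read (within 0.01 reads). The table also holds fold changes and p-values of the authors' own comparisons, which were not used. Genotypes and cell types were compared with limma 3.58.1 (R 4.3.3) on log2(FPKM + 1) with 1 mean per group, for 11522 genes above 1 FPKM in at least 2 libraries, with Benjamini-Hochberg adjustment. The edgeR fit of the methods was not repeated, and limma-voom was run on the recovered reads as an alternative. The script was tested on simulated data. Single genes were compared by exact permutation. Promoters came from RefSeq and gene positions from GENCODE M1. The 10 genes and the lists were chosen with earlier results of these data known. From each list the text names the 4 genes with the highest mean FPKM and any that passed between the genotypes. Others are named where they met a rule for gain or loss, or as regulators with an unadjusted limma p under 0.05 in BMPC. Alternatives were another pseudocount, filter, scaling, weighting, covariate or tool, and leaving out each library.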

Additional observations from a re-analysis of the deposited data

How the results depend on the processing

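The count of germline genes that passed, 0, was obtained again in 90 of 91 alternatives. At most 1 member was tested in these (4 without the filter), so the count says nothing about stability. The exception was voom, with 1 (Ddx4, BMPC minus GCB, 3.34). Requiring 3 libraries above 3 FPKM left no member to test in any of the 6 comparisons. Counting members with at least 1 read in a Dnmt3-deficient nB library gave 2 in place of 1. Leaving out libraries one at a time, the difference of summed reads per 1000000 reads on genes in nB, -1.69 with all libraries, lay between -3.04 and 1.01, and the positive value came without Dnmt3-sufficient replicate 2, where the Ddx4 differences in nB and for GCB minus nB also became 0. The small Ddx4 difference of BMPC minus nB ranged from -0.0834 to 0.394 when single libraries were left out, and it was negative without Dnmt3-sufficient BMPC replicate 1 (-0.0491) and without Dnmt3-sufficient nB replicate 1 or 3 (-0.0834 each). The adjusted p of Ddx4 between the genotypes in BMPC ran from 0.133 to 0.984 over the alternatives, and its difference from -2.51 to -0.54. The Sycp3 difference in nB, by leave-outs chosen after seeing the data, lay between 0.403 and 1.09 FPKM. Shared title parts (F2, F3, M1) as a replicate block in GCB left the count at 0, and same-titled samples did not deviate together (correlations -0.0171 to 0.0257), so a shared origin is not shown. Depth limits BMPC most, and libraries within a group are 1 mouse or pool each.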
